A study of Homo sapiens with 6 samples.

Results

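Cholesterol is made inside the cell from acetyl-CoA, taken up in lipoproteins and exported again, and 34 genes covering these routes were examined in SAS cells depleted of the RNA-binding protein IGF2BP1. They were chosen as a fixed list of named genes for sterol synthesis, its control, intracellular sterol transport and efflux, and all 34 were found among the 62700 genes of the deposited count table. SAS is a human squamous cell carcinoma line. In the knockdown group the cells carried an siRNA against IGF2BP1 (siIGF2BP1, 3 libraries), and in the other group a control siRNA (siC, 3 libraries), with no other treatment or allele named. Neither the independence of the replicate cultures nor the sequence of siIGF2BP1 is given in the labels, so each p-value reflects library-to-library spread that could be technical. Library totals lay between 17918496 and 25926371 reads for siIGF2BP1 and between 23775889 and 26675064 reads for siC.

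As background, sterol synthesis is governed by a feedback loop in the endoplasmic reticulum. When membrane cholesterol is low, SCAP escorts the precursors of the transcription factors SREBP-1 and SREBP-2, encoded by SREBF1 and SREBF2, to the Golgi, where they are cut and released to switch on the synthesis genes. INSIG1 and INSIG2 hold SCAP back when sterols are plentiful, and oxysterols then activate the liver X receptors (LXR), encoded by NR1H3 and NR1H2, which switch on the exporters ABCA1 and ABCG1 and the ubiquitin ligase gene MYLIP. SREBP proteins bind sterol regulatory elements in promoters next to the factor NF-Y, whose site is the CCAAT box.

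IGF2BP1 itself stood at 1.595, 1.09 and 0.806 CPM in siIGF2BP1 libraries 1 to 3, against 8.11, 9.60 and 11.2 CPM in siC libraries 1 to 3, which checks the labels. CPM here is the read count scaled to library size with TMM factors. Squamous and epithelial keratins were abundant in both groups: the 12 markers of the line's epithelial type summed to between 13051 and 13978 CPM in siIGF2BP1 and between 23675 and 25620 CPM in siC, and 6 of the 12 were called lower. Of 7 fibroblast markers COL3A1, DCN, LUM and THY1 had 0 reads in every library, and the sum of the list was 4.34 to 7.70 CPM in siIGF2BP1 and 5.60 to 7.84 CPM in siC. Of 7 leukocyte markers PTPRC, CD3E and FCGR3A were at 0 (sums of 12.3 to 14.3 CPM in siIGF2BP1 and 17.5 to 18.5 CPM in siC, mostly CD14). Of 5 endothelial markers KDR and CLDN5 were at 0 (sums of 6.17 to 13.5 CPM in siIGF2BP1 and 6.29 to 7.41 CPM in siC). Some other signals differed between libraries or between groups. RNAs that mostly lack poly(A) tails summed to between 115 and 1136 CPM in siIGF2BP1 and between 49.6 and 202 CPM in siC, with the highest value in siIGF2BP1 library 1. These sums overlapped between the groups, and 0 of the 5 tested genes of that list were called. Even so, 0 of the 5 had a fold change below 0. Their log2 fold changes ran from 2.20 to 2.69 (median 2.59), so these RNAs were not level between the groups. Of 14 tested interferon-stimulated genes 6 were called higher and 0 lower, with sums of 468 to 493 CPM in siIGF2BP1 and 258 to 266 CPM in siC. The part of these differences in the values below was not tested.

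After knockdown, 7 genes of sterol synthesis, its control and sterol transport fell, and 1 LXR gene rose. The falls were those of the enzyme genes DHCR7, FDFT1, FDPS and MVD, of SREBF1 and INSIG1, and of TMEM97, and the rise was that of NR1H2. Of the 34 genes 33 passed the filter on low counts, and 25 of these were not called, at an adjusted p under 0.05 in edgeR's quasi-likelihood test. In RNA from whole cultures, fewer cells that use a gene and less of its RNA per cell cannot be told apart. Among all 14649 tested genes 6.66% were called lower and 6.27% higher, so the 21.2% of cholesterol genes called lower was above that background and the single rise was not. Fold changes below 0 were found for 26 of the 33 and for 6848 of all 14649 tested genes. The median log2 fold change of the 33 was -0.32, beside 0.03 for all tested genes. siIGF2BP1 and siC libraries did not overlap in the lower direction for 13 of the 33 (39.4%; 15.1% of all tested genes) and in the higher direction for 2 (NR1H2 and PMVK; 15.5% of all tested genes). Without siIGF2BP1 library 1, the library with the most RNA lacking poly(A) tails, 11 were called lower and 1 higher. The 11 include all of the 7, and 7.48% of all tested genes were called lower in that fit.

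The shift was of similar size in each knockdown library. Each library was set against the mean of the siC libraries on the scale of log2(CPM + 0.5). That mean holds each siC library itself, which draws the siC values towards 0, and the siIGF2BP1 libraries share it as baseline. The median over the 33 genes was -0.32, -0.34 and -0.31 in siIGF2BP1 libraries 1 to 3, and 0.01, 0.05 and 0.01 in siC libraries 1 to 3. Over all tested genes the same medians were 0.02, 0.04 and 0.02 in siIGF2BP1 libraries. Of the 33 genes, 27, 23 and 25 lay below the siC mean in siIGF2BP1 libraries 1 to 3, and 16, 10 and 14 in siC libraries 1 to 3.

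**Figure D1:**
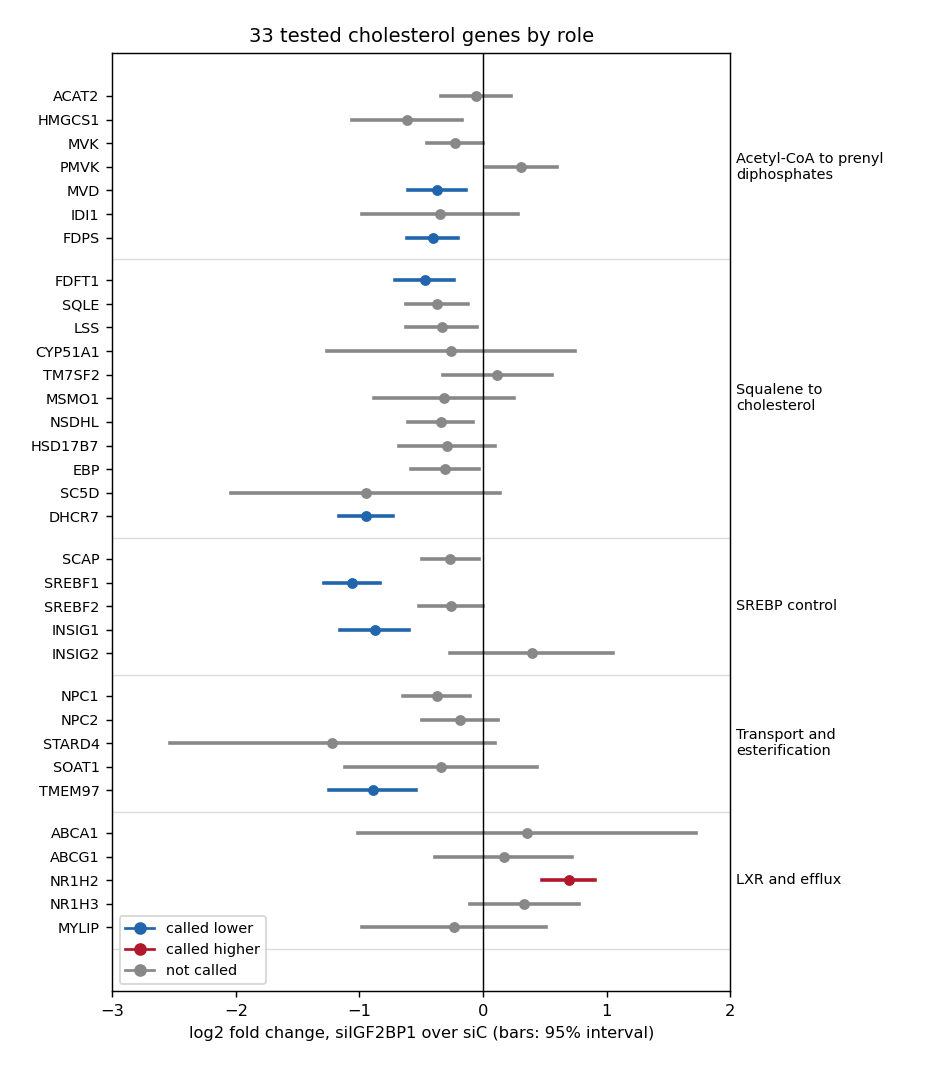
log2 fold change of each tested gene (siIGF2BP1 over siC, x axis) with its 95% interval, by role; blue marks genes called lower, red genes called higher and grey genes not called. Of 33 genes, 7 are blue and 1, NR1H2, is red, and the widest intervals belong to STARD4, ABCA1, SC5D and CYP51A1.

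The start regions of the genes that fell were read for the elements described above, to show what their promoters hold. RefSeq promoter windows (GRCh38.p14, 250 bases before an annotated start) were matched for 30 of the 34 genes, in 42 windows. The letters CCAAT, searched on both strands, were in 24 of the 42 windows (57.1%) and in 32.0% of the 35116 windows of all genes. The GC box GGGCGG, the site of Sp1-type factors, was in 37 of 42 (88.1%) and in 42.6% of all windows. The sterol element, searched as TCACNCCAC on both strands, was found in 1 window, that of SREBF2, and in 0.883% of all windows; it shares no letters with the CCAAT box beside it. Counted by gene, 22 of the 30 matched genes had a window with CCAAT, among them 5 of the 6 matched genes that fell (SREBF1 was the exception). SREBF1 was matched at 1 start only, so any other start of it was not searched. These matches are letters in a window, not shown binding sites. The 6 windows are given on the strand of the gene, 5′ to 3′, with CCAAT (or ATTGG, the same box on the other strand) and the sterol element in capitals. SREBF2 is shown for its sterol element and the others for their CCAAT boxes.
SREBF2 (chr22:41832855-41833104, plus strand): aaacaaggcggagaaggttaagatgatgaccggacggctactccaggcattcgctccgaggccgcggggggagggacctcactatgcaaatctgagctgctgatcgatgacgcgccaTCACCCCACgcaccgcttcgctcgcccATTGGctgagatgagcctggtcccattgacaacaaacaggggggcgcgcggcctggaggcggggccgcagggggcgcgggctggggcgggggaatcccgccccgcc
DHCR7 (chr11:71448394-71448643, minus strand): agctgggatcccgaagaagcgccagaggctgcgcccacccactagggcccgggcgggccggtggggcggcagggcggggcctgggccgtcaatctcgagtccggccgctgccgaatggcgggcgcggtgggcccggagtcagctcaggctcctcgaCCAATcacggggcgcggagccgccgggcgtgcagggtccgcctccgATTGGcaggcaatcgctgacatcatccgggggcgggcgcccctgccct
INSIG1 (chr7:155297628-155297877, plus strand): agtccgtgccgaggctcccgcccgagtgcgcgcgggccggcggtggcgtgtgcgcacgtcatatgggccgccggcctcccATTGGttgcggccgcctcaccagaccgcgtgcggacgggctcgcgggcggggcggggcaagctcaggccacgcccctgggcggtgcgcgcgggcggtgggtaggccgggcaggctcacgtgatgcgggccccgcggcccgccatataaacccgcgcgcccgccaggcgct
TMEM97 (chr17:28318950-28319199, plus strand): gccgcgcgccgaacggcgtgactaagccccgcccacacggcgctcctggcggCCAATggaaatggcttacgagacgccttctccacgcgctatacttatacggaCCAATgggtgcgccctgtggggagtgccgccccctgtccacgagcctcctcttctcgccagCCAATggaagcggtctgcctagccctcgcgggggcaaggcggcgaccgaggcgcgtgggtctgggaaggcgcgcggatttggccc
FDPS (chr1:155308616-155308865, plus strand): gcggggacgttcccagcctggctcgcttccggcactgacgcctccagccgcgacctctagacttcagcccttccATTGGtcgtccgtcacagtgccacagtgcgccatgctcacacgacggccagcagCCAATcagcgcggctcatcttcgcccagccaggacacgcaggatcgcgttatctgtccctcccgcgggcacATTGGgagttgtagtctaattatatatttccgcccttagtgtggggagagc
MVD (chr16:88663092-88663341, minus strand): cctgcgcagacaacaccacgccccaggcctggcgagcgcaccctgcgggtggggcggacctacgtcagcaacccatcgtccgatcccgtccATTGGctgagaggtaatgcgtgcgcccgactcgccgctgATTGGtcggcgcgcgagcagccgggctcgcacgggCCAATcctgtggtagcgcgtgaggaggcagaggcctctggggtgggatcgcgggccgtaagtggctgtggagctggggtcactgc
The sterol element of SREBF2 began 133 bases before the start, and its CCAAT box 106 bases before it. FDPS, MVD and TMEM97 each held 3 CCAAT boxes, DHCR7 held 2 and INSIG1 held 1, as shown, but the window of the other annotated DHCR7 start held 0, and the single SREBF1 window held 0 CCAAT and 3 GGGCGG. NR1H2, the gene that rose, held 0 CCAAT and 1 GGGCGG. The choice of the windows with CCAAT was made after the matches were seen.

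The first stretch of the pathway runs from acetyl-CoA to the prenyl diphosphates, and 2 of its 7 tested genes fell. FDPS, which makes farnesyl diphosphate, the branch point to sterols and to protein prenylation, had 356, 367 and 389 CPM in siIGF2BP1 libraries 1 to 3, against 496, 500 and 478 CPM in siC libraries 1 to 3. The groups did not overlap, and the fitted level was 24.6% lower (log2 fold change -0.41, SE 0.10, adjusted p = 0.00933). FDPS lies on chromosome 1 (155308748 to 155320666, plus strand), 18.6% of its exon bases overlap a gene of the opposite strand, and its 8 pseudogenes together held between 1 and 13 reads a library. MVD, the decarboxylase that makes isopentenyl diphosphate (chromosome 16, 88651935 to 88663161, minus strand), had 107, 98.0 and 93.2 CPM in siIGF2BP1, against 139, 134 and 114 CPM in siC. Its values did not overlap, and the fit gave -0.37 (log2, SE 0.11, adjusted p = 0.0369), but the call was lost with no scaling factor and without siC library 1, siC library 2 or siIGF2BP1 library 3 (adjusted p up to 0.147).

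HMGCS1, the synthase that makes HMG-CoA, was not called at 8.19, 8.66 and 7.64 CPM in siIGF2BP1 libraries, against 9.60, 14.8 and 13.2 CPM in siC libraries. Each siIGF2BP1 value lay below each siC value; the log2 fold change was -0.62 (95% interval -1.06 to -0.17, adjusted p = 0.0642), and an opposite-strand gene covers 14.95% of its exon bases. Of 13 alternative fits 3 called HMGCS1 lower, those with the replicate block, without siC library 1 and with DESeq2 (adjusted p down to 0.0249). The kinase gene MVK, which phosphorylates mevalonate, likewise had separate groups, with 84.5 ± 4.84 CPM in siIGF2BP1 and 98.9 ± 6.01 CPM in siC (SD, n = 3 each), and was not called (log2 fold change -0.23, adjusted p = 0.193). The next kinase gene, PMVK, had values on the other side: 37.9, 37.2 and 32.6 CPM in siIGF2BP1, against 26.4, 31.0 and 29.4 CPM in siC, and a fitted log2 change of 0.31 (95% interval 0.02 to 0.60, adjusted p = 0.155). So the neighbouring steps run by PMVK and MVD had point estimates of opposite sign. IDI1, the isomerase, had 3.94 ± 0.989 CPM in siIGF2BP1 and 5.02 ± 1.39 CPM in siC, with overlapping groups (log2 fold change -0.35, adjusted p = 0.517). ACAT2, the cytosolic thiolase at the entry of the pathway, had 31.4 ± 2.62 CPM in siIGF2BP1 and 32.7 ± 2.36 CPM in siC, a log2 fold change of -0.06 (95% interval -0.34 to 0.23) that turned to 0.03 with no scaling factor. Genes on the opposite strand share 52.3% of the exon bases of ACAT2, so its value is uncertain. GGPS1, which makes geranylgeranyl diphosphate, had 4, 4 and 1 reads in siIGF2BP1 and 6, 0 and 12 reads in siC and was left out by the filter; 3 reads correspond to between 0.115 and 0.165 CPM in these libraries.

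From squalene to cholesterol, 2 of 11 tested genes fell and 0 rose, and 10 of the 11 had a fold change below 0. At an unadjusted p under 0.05, edgeR counted 6 of the 11 lower and 0 higher, beside 12.6% of all tested genes lower and 13.1% higher at that threshold. DHCR7, the reductase of the last steps (chromosome 11, 71428193 to 71452868, minus strand), had the lower fold change of the 2. It stood at 481, 394 and 441 CPM in siIGF2BP1 libraries 1 to 3, against 860, 830 and 849 CPM in siC libraries 1 to 3. All 3 siIGF2BP1 values were far under the siC values, with a fitted level 48.2% lower (log2 fold change -0.95, SE 0.10, adjusted p = 1.24e-05). FDFT1, squalene synthase, the first step committed to sterols (chromosome 8, 11795573 to 11839309, plus strand), had 179, 150 and 202 CPM in siIGF2BP1, against 240, 253 and 244 CPM in siC. Its groups were apart as well (log2 fold change -0.47, SE 0.11, adjusted p = 0.0103). SQLE, the epoxidase that is a rate-limiting enzyme of the sterol branch, had 68.0, 72.5 and 56.9 CPM in siIGF2BP1, against 80.3, 85.0 and 89.7 CPM in siC. It stood just outside the threshold (log2 fold change -0.37, SE 0.12, adjusted p = 0.0509) and was called in 6 of 13 alternative fits, among them DESeq2 and the fit without siIGF2BP1 library 1.

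The middle enzymes had estimates close to each other and were not called. NSDHL, a dehydrogenase that helps remove the C4 methyl groups, had 32.6, 32.1 and 31.9 CPM in siIGF2BP1, against 42.1, 41.7 and 38.6 CPM in siC, without overlap (log2 fold change -0.34, 95% interval -0.60 to -0.08, adjusted p = 0.086; 0.0483 with DESeq2). LSS, the cyclase that forms lanosterol, stood at -0.33 (adjusted p = 0.125) and was called in 3 alternative fits, those with no filter and without siIGF2BP1 library 1 or siC library 3. EBP, a sterol isomerase, had -0.30 (adjusted p = 0.147), HSD17B7, a ketosteroid reductase, -0.29 (adjusted p = 0.36), and MSMO1, the C4 methyl oxidase, -0.32 (adjusted p = 0.508), each with overlapping groups. TM7SF2, a sterol C14 reductase, was the exception in sign at 0.11 (95% interval -0.33 to 0.56), which turned to -0.063 without siC library 3. SC5D, the C5 desaturase, and CYP51A1, the lanosterol demethylase, had few reads. SC5D had 9, 14 and 25 reads in siIGF2BP1 and 31, 43 and 22 reads in siC (log2 fold change -0.95, 95% interval -2.04 to 0.14), and CYP51A1 had 20, 19 and 31 reads in siIGF2BP1 and 17, 40 and 33 in siC (-0.26, 95% interval -1.26 to 0.75; 0.030 without siC library 2). Same-strand genes share 79.4% of the exon bases of CYP51A1, so its count is uncertain. Over both stretches, 4 of 18 tested synthesis genes fell, 16 of 18 had a fold change below 0, and the median over the 18 was -0.32, -0.37 and -0.32 in siIGF2BP1 libraries 1 to 3 on the log2(CPM + 0.5) scale.

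**Figure D2:**
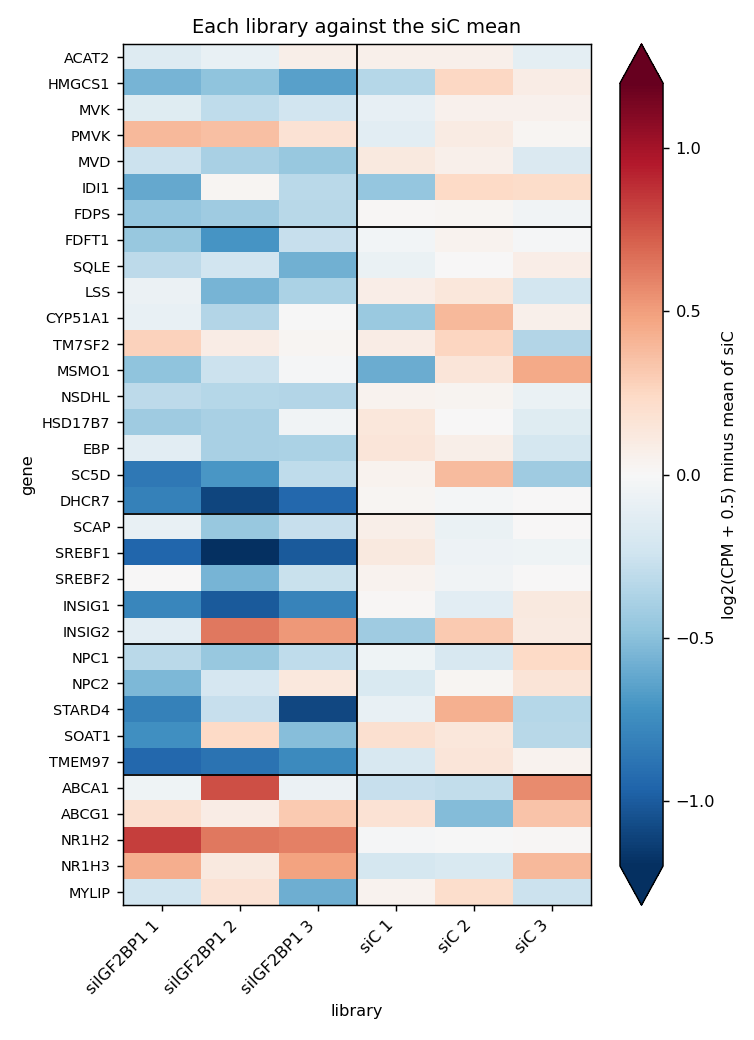
Each row is a tested gene and each column a library; colour gives log2(CPM + 0.5) minus the mean of the siC libraries, with black lines between roles and between groups. DHCR7, SREBF1, INSIG1 and TMEM97 are dark blue in all 3 siIGF2BP1 columns and NR1H2 is red in all 3, while low genes such as SC5D, STARD4 and ABCA1 vary within groups.

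Among the regulators, SREBF1 and INSIG1 fell while their paralogs were not called. SREBF1 (chromosome 17, 17810399 to 17837002, minus strand) had 269, 221 and 258 CPM in siIGF2BP1 libraries 1 to 3, against 562, 499 and 499 CPM in siC libraries 1 to 3. The fitted level was 52.0% lower, with the lowest adjusted p of the 33 genes (log2 fold change -1.06, SE 0.11, adjusted p = 5.89e-06); an opposite-strand gene covers 6.92% of its exon bases. Gene counts do not separate the SREBP-1a and SREBP-1c transcripts, which start at different exons. SREBF2 had 488, 331 and 405 CPM in siIGF2BP1, against 502, 472 and 489 CPM in siC, with overlap between groups (log2 fold change -0.26, 95% interval -0.52 to 0.00, adjusted p = 0.2). Without siIGF2BP1 library 1, which holds the highest of the 3 values, SREBF2 was called lower at -0.41 (adjusted p = 0.0131). In reads of the same library, SREBF1 was 0.552, 0.670 and 0.637 times SREBF2 in siIGF2BP1 libraries, against 1.12, 1.06 and 1.02 times in siC libraries. These ratios do not depend on scaling and did not overlap; the exact two-sided permutation test gave p = 0.1, the smallest that 3 against 3 libraries allow (0.167 adjusted over 5 ratios).

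INSIG1 (chromosome 7, 155297776 to 155310235, plus strand), itself an SREBP target, had 27.9, 23.7 and 27.4 CPM in siIGF2BP1, against 48.6, 44.0 and 52.4 CPM in siC. The groups were apart, with a fitted level 45.6% lower (log2 fold change -0.88, SE 0.13, adjusted p = 3.25e-04). INSIG2, which has the same function but is not driven by SREBP in most cells, had 3.13, 5.64 and 5.18 CPM in siIGF2BP1, against 2.45, 4.44 and 3.76 CPM in siC, with overlap (log2 fold change 0.39, 95% interval -0.27 to 1.06, adjusted p = 0.478). The INSIG1 to INSIG2 read ratio was 8.89, 4.19 and 5.28 in siIGF2BP1 and 19.8, 9.91 and 13.9 in siC (exact permutation p = 0.1, again the smallest possible). SCAP had 314, 243 and 275 CPM in siIGF2BP1, against 350, 316 and 335 CPM in siC, and was not called (log2 fold change -0.27, adjusted p = 0.13; -0.37 and adjusted p = 0.02 without siIGF2BP1 library 1; also called with the replicate block).

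**Figure D3:**
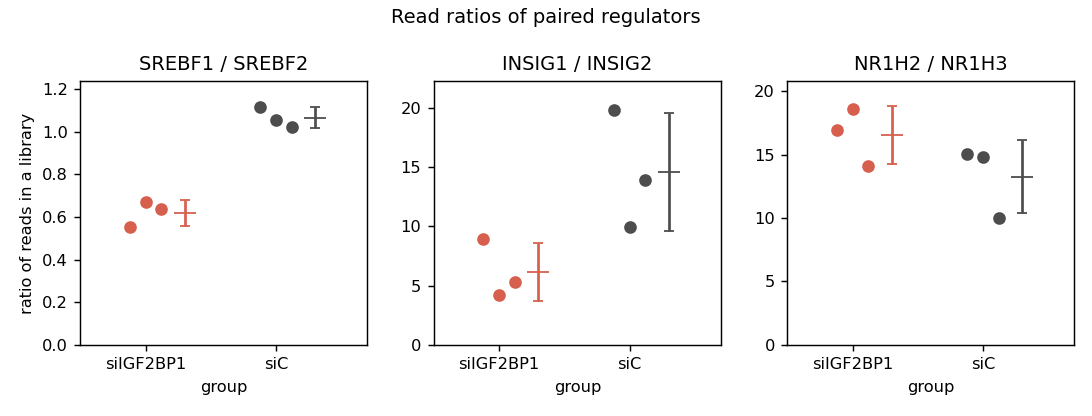
Ratio of reads of paired regulators within each library (y axis) in siIGF2BP1 and siC; points are libraries 1 to 3 from left to right and the bar is the mean with SD. SREBF1 to SREBF2 and INSIG1 to INSIG2 ratios are lower in every siIGF2BP1 library than in every siC library, and NR1H2 to NR1H3 ratios overlap.

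Of the genes for intracellular sterol handling, TMEM97 fell and 4 of 5 were not called. TMEM97, a sterol-responsive membrane protein that binds the lysosomal transporter NPC1 (chromosome 17, 28319095 to 28328685, plus strand), had 11.3, 11.8 and 12.9 CPM in siIGF2BP1, against 19.4, 24.7 and 22.9 CPM in siC. Each siIGF2BP1 value was under each siC value, and the fitted level was 46.1% lower (log2 fold change -0.89, SE 0.17, adjusted p = 0.00183); an opposite-strand gene covers 11.9% of its exon bases. NPC1, which moves cholesterol out of lysosomes, had 50.8, 46.0 and 51.2 CPM in siIGF2BP1, against 61.1, 55.6 and 75.1 CPM in siC. Its groups did not overlap, but it was not called (log2 fold change -0.37, 95% interval -0.65 to -0.10, adjusted p = 0.0686), whereas 4 of 13 alternative fits called it lower, those with no filter, with the replicate number as a block, without siC library 2 and with DESeq2 (adjusted p down to 0.0317). NPC2, its soluble partner, overlapped between groups at 199 ± 45.4 CPM in siIGF2BP1 and 226 ± 26.9 CPM in siC (SD, n = 3 each), and was not called (log2 fold change -0.19, adjusted p = 0.467). SOAT1, which esterifies cholesterol for storage, had 2.31 ± 1.05 CPM in siIGF2BP1 and 2.93 ± 0.648 CPM in siC (-0.34, adjusted p = 0.627). STARD4, a cytosolic sterol carrier, had 7, 18 and 6 reads in siIGF2BP1 and 22, 37 and 19 in siC. It passed the filter (0.42 CPM) in 1 siIGF2BP1 library and in 3 siC libraries, so its log2 fold change of -1.22 (95% interval -2.53 to 0.09, adjusted p = 0.234) carries that selection. Without 1 library it lay between -1.87 (without siIGF2BP1 library 2) and -0.86 (without siC library 2).

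Of the 5 LXR and efflux genes 1 rose and 4 were not called, and 4 of the 5 fold changes were above 0. Among all tested genes 6.27% were called higher, and 6848 of 14649 had a fold change below 0. With 5 genes, these counts do not show a shared direction. NR1H2, which encodes LXR-beta, the broadly expressed receptor (chromosome 19, 50329653 to 50382982, plus strand), had 254, 222 and 218 CPM in siIGF2BP1 libraries 1 to 3, against 142, 142 and 145 CPM in siC libraries 1 to 3. The groups were far apart relative to their spread, and the fitted level was 1.62 times that of siC (log2 fold change 0.69, SE 0.10, adjusted p = 2.22e-04). NR1H3, which encodes LXR-alpha, had 15.01, 11.9 and 15.5 CPM in siIGF2BP1, against 9.42, 9.60 and 14.5 CPM in siC, with overlap (0.34, 95% interval -0.11 to 0.78, adjusted p = 0.346). ABCG1, an exporter to high-density lipoprotein, had 6.71, 6.21 and 7.37 CPM in siIGF2BP1, against 6.62, 3.92 and 7.52 CPM in siC (0.17, 95% interval -0.39 to 0.72; -0.079 without siC library 2). ABCA1, the exporter to lipid-poor apolipoprotein, rested on 10, 31 and 14 reads in siIGF2BP1 and 9, 9 and 29 in siC (0.36, 95% interval -1.01 to 1.73; -0.25 without siIGF2BP1 library 2), and it passed the filter in 3 siIGF2BP1 libraries and in 1 siC library. MYLIP, whose product marks lipoprotein receptors for degradation, had 2.25 ± 0.728 CPM in siIGF2BP1 and 2.64 ± 0.499 CPM in siC (-0.23, adjusted p = 0.737). So the LXR-beta gene was higher, while the exporter and MYLIP transcripts were not called and had wide intervals.

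**Figure D4:**
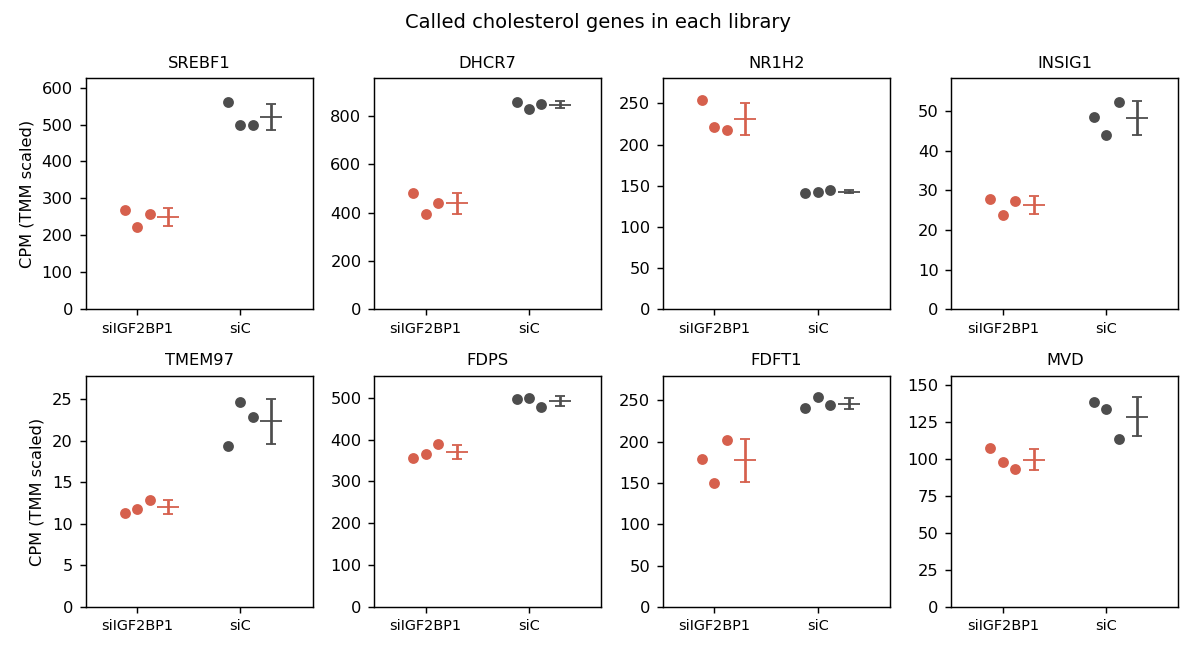
CPM of the 8 called genes in each library (y axis from 0; siIGF2BP1 left, siC right); points are libraries 1 to 3 from left to right and bars the mean with SD. In every panel the groups are apart, with NR1H2 higher and the other 7 genes lower in siIGF2BP1.

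The genes also differed greatly in level, given here as CPM per kilobase of the deposited gene length. FDPS was highest in both groups, at 99.6 ± 4.57 in siIGF2BP1 and 132 ± 3.24 in siC (SD, n = 3 each), and DHCR7 had 63.7 ± 6.34 in siIGF2BP1 and 123 ± 2.20 in siC. NPC2 stood between these 2 genes in siIGF2BP1, at 76.9 ± 17.6, a spread that reaches DHCR7, and below both in siC, at 87.5 ± 10.4. SREBF1 ranked 9 of 34 in siIGF2BP1 and 4 of 34 in siC, and NR1H2 ranked 6 in siIGF2BP1 and 11 in siC. HMGCS1 had 1.23 ± 0.0773 in siIGF2BP1 and 1.89 ± 0.40 in siC, and SC5D, STARD4, ABCA1 and GGPS1 were under 0.2 in both groups. Level and base composition went together across genes: median CPM over all tested genes was 2.37 in the lowest quintile of transcript GC content (31.3% to 42.3%) and 26.1 in the highest (59.2% to 85.5%), and the 9 cholesterol genes of the lowest quintile lay between 0.782 and 13.5 CPM. Of these 9, 0 were called by edgeR (1, HMGCS1, had an unadjusted p under 0.05 and was called by DESeq2), and 1.47% of all genes in that quintile were called lower, against 10.7% in the next-to-highest quintile and 9.40% in the highest. From the lowest to the highest quintile, which held 9, 6, 5, 7 and 6 of the cholesterol genes, their median log2 fold change was -0.34, -0.30, -0.34, -0.26 and -0.08. The part of base composition in the levels was not tested.

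Other genes of the same routes were counted from lists that had been written with earlier results of these data known. Of 10 tested helper enzymes of sterol synthesis 1 fell and 0 rose: POR, the reductase that feeds electrons to SQLE and CYP51A1, had 267 ± 25.0 CPM in siIGF2BP1 and 399 ± 17.9 CPM in siC (log2 fold change -0.58, adjusted p = 0.00113). The median of that list was -0.21, and IDI2 had 0 reads in all libraries. Of 13 genes for SREBP processing and its control 1 fell and 0 rose, with a median of -0.05: ERLIN1, a sterol-binding protein of the endoplasmic reticulum that restrains SREBP release, had 9.35, 8.75 and 12.1 CPM in siIGF2BP1, against 18.6, 19.3 and 28.97 CPM in siC (-1.15, adjusted p = 0.00124). The SREBP protease genes MBTPS1 and MBTPS2 were not called, at -0.01 and 0.16.

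In the branches to other isoprenoids, 1 of 15 rose, 1 fell, and the median was -0.06. ICMT, which methylates prenylated proteins, rose (0.44, adjusted p = 0.00855), and DOLK, dolichol kinase, fell (-0.62, adjusted p = 0.00371). Of 17 other genes for sterol uptake and transport 4 fell and 0 rose, with a median of -0.12. SCARB1, the high-density lipoprotein receptor, had 363, 276 and 287 CPM in siIGF2BP1, against 480, 430 and 406.5 CPM in siC (-0.51, adjusted p = 0.00865). LIPA, the lysosomal acid lipase that frees cholesterol from taken-up lipoprotein, fell by 0.60 on the log2 scale (adjusted p = 0.00423), the lipoprotein receptor chaperone gene LRPAP1 by 0.33 (adjusted p = 0.0376) and the sterol carrier gene STARD5 by 0.73 (adjusted p = 0.0283).

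Of 12 tested genes of oxysterol metabolism and LXR action 1 fell and 1 rose, with a median of -0.0006. The gene that rose is not reported here. The gene that fell was RXRA, that of the partner receptor of LXR. It had 173 ± 25.6 CPM in siIGF2BP1 and 243 ± 24.2 CPM in siC (log2 fold change -0.49, adjusted p = 0.0113). CH25H, which makes 25-hydroxycholesterol, was not called at 2.098 CPM in siIGF2BP1 and 2.93 CPM in siC (-0.49, adjusted p = 0.407), and CYP7B1 had 0 reads. Fatty acid synthesis genes, which SREBP-1 drives, went both ways: 3 of 16 fell and 2 rose, with a median of -0.15. SCD, the stearoyl-CoA desaturase gene, had 327, 276 and 283 CPM in siIGF2BP1, against 535, 542 and 602 CPM in siC (-0.92, adjusted p = 1.95e-05), and ACACA (-0.82, adjusted p = 0.0147) and FADS1 (-0.59, adjusted p = 0.00631) fell with it. FADS2 (0.63, adjusted p = 0.00647) and the elongase gene ELOVL1 (0.34, adjusted p = 0.0256) rose, FASN was not called (-0.13, adjusted p = 0.591), and THRSP had 0 reads. Against the background of 6.66% lower and 6.27% higher, these lists are small, and whether any of them differs from the 34 cholesterol genes was not tested.

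**Figure D5:**
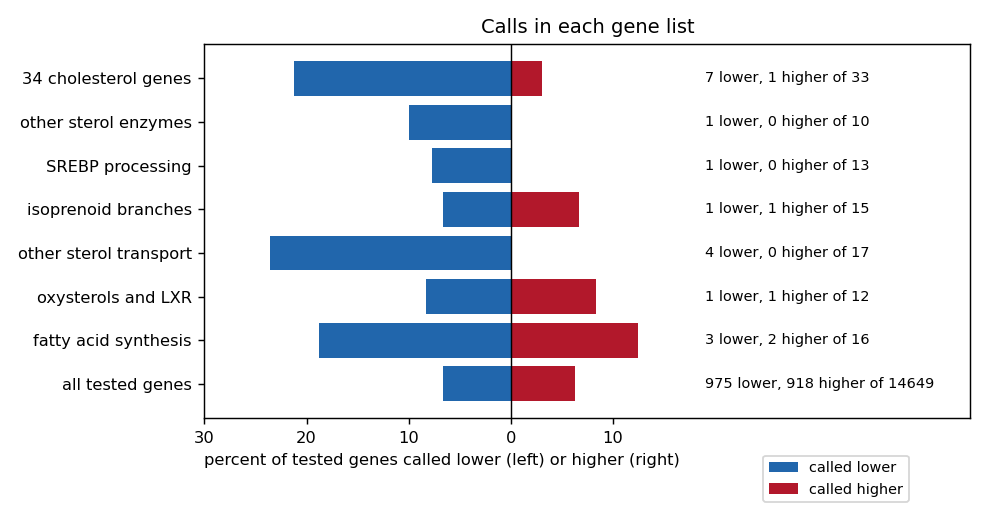
Percent of tested genes called lower (blue, left of 0) and higher (red, right of 0) in each list, siIGF2BP1 over siC, with the counts beside each bar. The 34 cholesterol genes had 7 lower and 1 higher of 33 tested, the other sterol transport genes 4 lower and 0 higher of 17, and all tested genes 975 lower and 918 higher of 14649.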

How the data were processed

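Poly(A)-selected RNA of SAS cells was sequenced in 6 strand-marked (dUTP) libraries, per the labels' protocols. Raw read counts for 62700 genes were deposited by the authors, with a column for each library. The submitters' processing notes name featureCounts 2.0.0, HISAT2 2.1.0, cutadapt 2.8, SAMtools 1.10 and the build hg38; which annotation, strand setting and multi-mapping rule were used is not given in these sources. Another deposited column, gene length in bases as the authors made it, was used only for levels per kilobase. Overlap of exons with other genes and gene coordinates come from GENCODE release 29 on GRCh38, and GC content from its longest transcript per gene. The deposited length equals the exon bases of that release for some genes, such as FDPS (3718). It differs for others, such as CYP51A1 (4171 deposited, 3584 in GENCODE) and ACAT2 (2639 deposited, 4299 in GENCODE). The overlaps given above may therefore differ from those in the gene models used for counting.

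The whole table was tested with edgeR 4.0.16 in R 4.3.3: filterByExpr (minimum count 10, minimum total 15), TMM scaling, robust dispersions, glmQLFit and glmQLFTest on the 2 groups, with Benjamini-Hochberg adjustment over 14649 genes. The SE is the coefficient over the root of its quasi-F. The fit was tested on simulated data. Replicates of a group differed by more than sampling noise (chi-square per degree of freedom between 14.6 and 36.2), so none was counted as a copy. The floor of 3 reads covers counting error only. Alternatives changed the scaling (RLE or none), the filter (none, or at least 5 CPM in 3 libraries) and the test (DESeq2 1.42.0, limma-voom with limma 3.58.1), blocked on the replicate number, or dropped 1 library at a time. All 34 genes are named; from each other list up to 3 called genes per direction by adjusted p are named (MBTPS1, MBTPS2, CH25H and FASN were added after their values were seen), except where a gene is not reported here. The genes, lists and tests were chosen with earlier results of these data known, and no list test was run.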

Additional observations from a re-analysis of the deposited data

How the results depend on the processing

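The rise of NR1H2 and the falls of SREBF1, DHCR7, INSIG1, TMEM97, FDPS and FDFT1 kept their direction and call in all 13 alternatives; MVD lost its call in 4 of them and kept its direction. The number of the 34 genes called lower was 11 with DESeq2 and 11 with the replicate number as a block. In these fits 8.27% and 8.69% of all tested genes were called lower, beside 6.66% in the main fit. Without 1 library the number was between 6 and 11, with 4.6% to 7.48% of all tested genes called lower. It was between 6 and 10 in the other alternatives, with 4.74% to 11.4% of all tested genes. The number called higher was 1 in every alternative. Among all tested genes, those higher numbered between 529 and 828 without 1 library, beside 918 with all 6, with 585 without siC library 1, 529 without siC library 2 and 587 without siIGF2BP1 library 3; the cause was not tested. With no scaling factor, 63.2% of all calls were higher, beside 48.5%, and the median of all genes moved by 0.08. Fold changes that changed sign belonged to genes that were not called. ACAT2 stood at 0.027 with no scaling factor. Without 1 library CYP51A1 lay between -0.55 and 0.030 (above 0 without siC library 2), ABCG1 between -0.079 and 0.34 (below 0 without siC library 2), TM7SF2 between -0.063 and 0.24 (below 0 without siC library 3) and ABCA1 between -0.25 and 1.05 (below 0 without siIGF2BP1 library 2). Libraries with the same number did not all deviate together (correlations of 0.24, 0.11 and -0.095 for numbers 1 to 3). The highest correlation of siIGF2BP1 libraries 1 to 3 with a siC library of another number was -0.12, 0.21 and 0.093. These values do not decide whether the numbers mark pairs, and the main fit had no block. With the replicate block 1158 of all tested genes were higher and 1273 lower, beside 918 and 975 in the main fit. The stricter filter left 26 of the 34 genes.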
